A study of Homo sapiens with 9 samples.

Results

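The 40 mitosis and spindle genes described here act in the G2 and M phases of the cell cycle. They were chosen by gene symbol for this role and are 40 of the 23284 gene symbols in the files. RNA was sequenced from 9 cultures of HT-29, an established human colon cancer cell line grown as a monolayer, with 3 replicate cultures in each of 3 groups. The control cultures (0 µM) received the vehicle DMSO, and the other groups received 5 µM or 10 µM 5-Aza (5-Aza-deoxycytidine), with 5 days of treatment. 5-Aza is a cytidine analog that is built into DNA, traps DNA methyltransferases and lowers DNA methylation. All 9 cultures are of 1 cell line, and the comparisons ask how the mitotic genes moved with treatment and with the dose.

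Cells prepare for division by switching on a shared program of genes late in the cell cycle. Cyclins A and B activate CDK1, the kinase that drives entry into mitosis, the Aurora and Polo kinases build the spindle, the kinetochore and its checkpoint hold back anaphase until every chromosome is attached, and the anaphase-promoting complex then marks cyclin B and securin for degradation. Complexes of the MuvB core with B-MYB and FOXM1 drive many of these genes in cycling cells, and the DREAM complex, which shares that core, represses them in resting cells through promoter sequences called CHR (cell cycle genes homology region), often next to CCAAT boxes bound by NF-Y.

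The promoters of 33 of the 40 genes were matched in the RefSeq promoter windows (GRCh38.p14), which run from 250 bases before to 50 bases after the transcription start. The genes with no matched window were FOXM1, AURKA, TPX2, BIRC5, UBE2C, TTK and BUB3. Stretches of 140 bases that end just before the start are printed for 6 genes. They show CHR and CCAAT together and, in CDC25B, a promoter without them. CHR and CCAAT were each found in most of the 33 windows, and a CHR near the start with a CCAAT box in 16. Capitals mark matches on either strand to CHR (TTTGAA or TTCGAA), to the CCAAT box (CCAAT, which reads ATTGG on the other strand) and to the E2F core (TTCCCGC). On the plus strand of GRCh38.p14 the stretches are chr15:59105006-59105145 (CCNB2), chr16:23678749-23678888 (PLK1), chr2:26785916-26786055 (CENPA), chr5:163460492-163460631 (HMMR), chr1:43358841-43358980 (CDC20) and chr20:3786811-3786950 (CDC25B).
CCNB2: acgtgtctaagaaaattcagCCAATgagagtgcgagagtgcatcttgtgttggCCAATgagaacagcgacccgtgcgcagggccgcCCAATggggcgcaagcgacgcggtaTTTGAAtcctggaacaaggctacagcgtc
PLK1: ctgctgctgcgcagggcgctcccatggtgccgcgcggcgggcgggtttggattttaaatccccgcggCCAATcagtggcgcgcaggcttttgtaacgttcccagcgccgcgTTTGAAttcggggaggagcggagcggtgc
CENPA: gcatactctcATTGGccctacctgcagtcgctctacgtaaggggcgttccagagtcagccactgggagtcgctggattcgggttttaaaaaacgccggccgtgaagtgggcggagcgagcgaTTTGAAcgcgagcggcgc
HMMR: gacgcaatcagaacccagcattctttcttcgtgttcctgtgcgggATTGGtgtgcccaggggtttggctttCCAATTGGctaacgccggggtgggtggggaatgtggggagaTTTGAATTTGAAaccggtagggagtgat
CDC20: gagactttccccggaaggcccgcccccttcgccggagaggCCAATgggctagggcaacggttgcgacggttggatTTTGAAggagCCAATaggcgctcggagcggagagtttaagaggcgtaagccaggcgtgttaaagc
CDC25B: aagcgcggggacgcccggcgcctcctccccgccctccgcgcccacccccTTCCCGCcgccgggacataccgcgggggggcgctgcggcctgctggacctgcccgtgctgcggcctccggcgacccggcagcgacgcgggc

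CCNB2 held 3 CCAAT boxes and 1 CHR in this stretch, and HMMR held 2 adjoining CHR matches and 3 CCAAT matches, of which a pair overlap on opposite strands. PLK1, CENPA and CDC20 each held a CHR and at least 1 CCAAT box. CDC25B held neither letters of CHR nor CCAAT, and had an E2F core. Over the 33 whole windows CHR was found in 22 (66.7%), against 16.6% of all 27305 RefSeq promoter windows. Between 100 bases before and 50 bases after the start it was found in 19 (57.6%, against 7.43%). A CCAAT box was found in 25 windows (75.8%, against 35.7%), and 16 (48.5%, against 11.3%) had at least 2. A CHR near the start with a CCAAT box in the same window was found in 16 (48.5%, against 3.01%), and the E2F core in the windows of CDC25B, CDC25C and CENPA (9.09%, against 6.56% of all windows and 9% of the 13015 windows of genes tested). In 1 gene the letters of a CHR and a CCAAT match overlapped. A match describes letters and not binding, and a single window per gene was read, so other transcription starts were not searched.

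**Figure D1:**
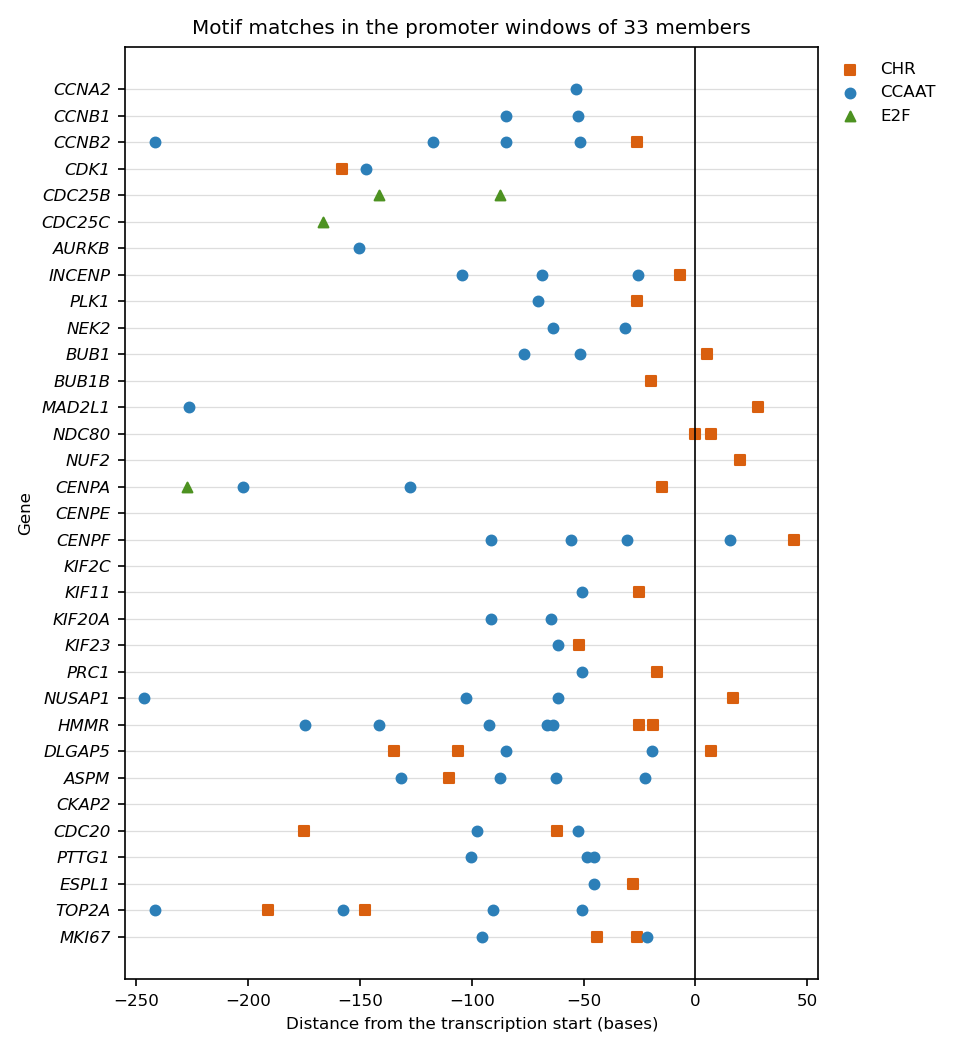
Motif matches in the promoter windows of 33 mitotic genes, with the distance from the transcription start in bases on the x axis, a gene in each row, and markers for CHR, CCAAT and E2F core matches on either strand. In 19 genes a CHR lies between 100 bases before and 50 bases after the start, and 25 genes have a CCAAT box.

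Each file holds FPKM, the fragments of a gene per kilobase of transcript and per mapped fragments of the library, a level per transcript length. The values of a library summed to between 3.69e+09 and 5.91e+09, far above the usual FPKM scale, so each level is read only against other levels of these files. All 40 genes were listed above 0 in all 9 libraries, and all 40 passed the filter on low values in every comparison. On this scale the filter removed few genes, with 20051 of 20115 left at 5 µM vs 0 µM. The shares over all genes therefore include genes with few fragments. Estimated from the step size of low values, the libraries held between 11600000 and 31700000 fragments, with the fewest in 10 µM replicate 1. The median mitotic gene had 218 to 277 estimated fragments in the controls, 495 to 613 at 5 µM and 100 to 192 at 10 µM. The lowest was CDC25C with 6.5 estimated fragments in 10 µM replicate 1, the only mitotic gene under 10 in any library. The 8 colon epithelial markers, EPCAM, KRT8, KRT18, KRT20, CDX2, CDH1, VIL1 and CEACAM5, were present in all 9 libraries, and several moved with treatment. KRT8 was at 35211200 to 42003400 FPKM in the controls, 11913700 to 13094800 at 5 µM and 9932250 to 18259600 at 10 µM, and KRT18 at 29680100 to 36486000, 9894010 to 11342700 and 8642360 to 15607000. KRT20 was at 5179560 to 6378920, 3854700 to 4593120 and 1945210 to 3544720, CDX2 at 52441 to 63296, 32150 to 38846 and 18652 to 27700, and CEACAM5 at 177026 to 216821, 519966 to 626365 and 228307 to 385018. Of the 6 markers of other cells, PTPRC was at 0 to 154 FPKM in the controls, 137 to 983 at 5 µM and 0 to 290 at 10 µM. CD3E was at 0 in the controls, 732 to 912 at 5 µM and 0 to 345 at 10 µM, and ALB at 0, 874 to 2026 and 0 to 441. VIM was at most 186 in the controls, 7582 to 14791 at 5 µM and 1165 to 2172 at 10 µM. COL1A1 was at 4936 to 8934, 30990 to 44478 and 17868 to 24147, and PECAM1 at 1667 to 4854, 8072 to 9642 and 2747 to 3395. The part of depth and of these markers in the results was not tested. In bulk RNA, fewer cells in mitosis and less RNA of a gene per cell cannot be told apart.

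Across the groups, the mitotic genes were near or above the controls at 5 µM and below both other groups at 10 µM. The mean FPKM was highest at 5 µM for 30 genes, highest in the controls for 10 and highest at 10 µM for 0. It was lowest at 10 µM for 37 genes and lowest in the controls for 3, CDC25B, INCENP and TTK. Relative to the control mean of each gene, the median log2 level of the 40 genes was 0.36, 0.01 and -0.31 in the controls, 0.12, 0.42 and 0.34 at 5 µM as well as -1.21, -0.88 and -1.23 at 10 µM. The control and 5 µM cultures overlapped in this median, and the 3 cultures at 10 µM lay below all others. The same median over the 15278 genes above 0 in all 9 cultures stayed between -0.34 and 0.04, lowest in 10 µM replicates 1 and 3.

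The controls differed among themselves in the same way for most of the genes. Control replicate 1 was the highest control for 36 of the 40 genes, and control replicate 3 was the lowest for 34. The median coefficient of variation of a mitotic gene was 23.9% in the controls, with a highest value of 68.6%, against 12.4% at 5 µM and 21.8% at 10 µM. Tests against the controls used the spread within both groups of a comparison, which limma adjusts toward that of genes of like level.

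**Figure D2:**
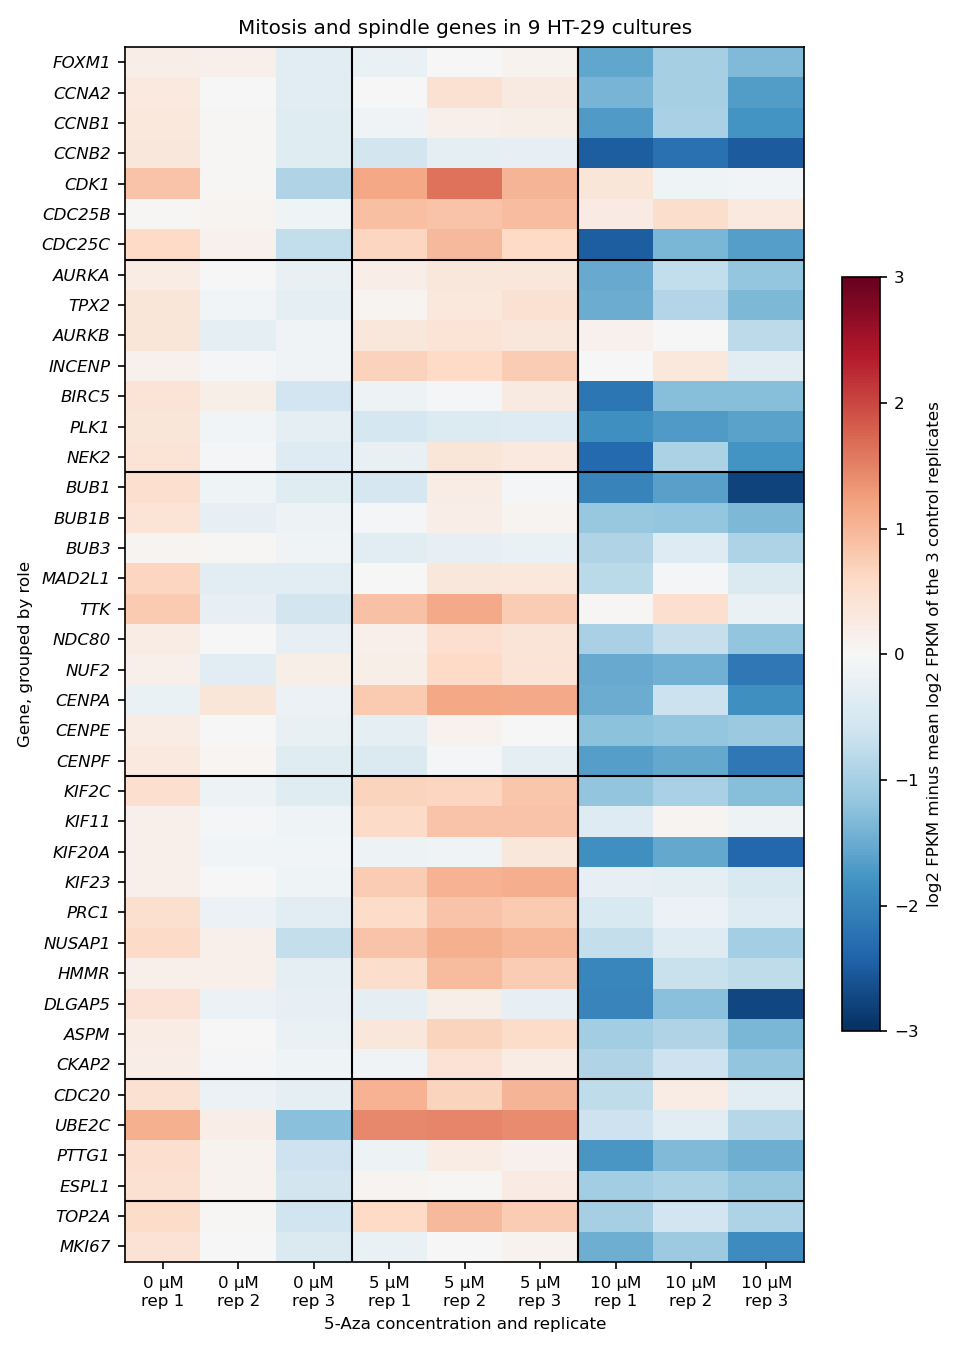
Heat map of the 40 genes (rows, grouped by role) in 9 cultures (columns, by 5-Aza concentration and replicate), where color is log2 FPKM minus the mean log2 FPKM of the 3 controls. The cultures at 10 µM are below the control mean in most rows, and control replicate 1 is the highest control in 36 rows.

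In the 5 µM vs 0 µM comparison, 10 of the 40 genes rose and 1 fell. KIF23, KIF11, HMMR, PRC1, KIF2C and ASPM, which bind or move spindle microtubules, rose between 1.43-fold and 1.95-fold. CDC25B, a phosphatase that activates CDK1, rose 1.86-fold, INCENP, the scaffold of the chromosomal passenger complex, 1.61-fold, CENPA, the histone of centromeres, 2.04-fold, and CDC20, an activator of the anaphase-promoting complex, 1.88-fold. BUB3, a spindle checkpoint protein, fell by 0.26 on the log2 scale. A gene was said to rise or fall where limma's Benjamini-Hochberg adjusted p over all genes, from 3 against 3 cultures, was at most 0.05. The 10 genes are 25% of the 40, against 21.3% of the 20051 genes tested that rose, and the gene that fell is 2.5%, against 17.7%. Past 2-fold as well, only CENPA was up (2.5%, against 14.1%) and 0 genes were down (against 2.17%).

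The median log2 difference of the 40 genes was 0.29, beside 0.14 over all genes tested and -0.04 over the 15418 genes above 0 in all 6 libraries. The single differences ran from -0.43 (PLK1) to 1.44 (UBE2C). All 3 replicates at 5 µM were above all 3 controls for 15 genes (37.5%, against 29.4% of all genes) and below them for 2 (5.0%, against 23.2%), and 23 genes overlapped. UBE2C and CDK1 had the largest differences, 1.44 and 1.27, and did not pass, with adjusted p of 0.0801 and 0.0621. Leaving out 1 library moved the count of genes that rose to 19 without control replicate 1, 6 without control replicate 2, 6 without 5 µM replicate 2 and 5 without 5 µM replicate 3. The count over all genes went from 4263 to 4118, 3756, 3593 and 3227 in these sets. The count was 8 without control replicate 3 and 7 without 5 µM replicate 1, with 4188 and 3664 over all genes. Without control replicate 1, 8 genes were past 2-fold upward (3027 over all genes, from 2818). Of the 6 sets with a library left out, the fall of BUB3 passed only in the set without control replicate 3. CENPA (0.997) was no longer past 2-fold with a pseudocount of 1000, under which CDK1 was (1.23, adjusted p = 0.0433). CENPA was also not past 2-fold without control replicate 1, control replicate 3, 5 µM replicate 2 or 5 µM replicate 3. Scaling all libraries to equal sums gave 23 genes that rose, 0 that fell and a log2 difference of 0.02 for BUB3. Over all genes this scaling gave 6623 that rose and 1550 that fell, from 4263 and 3553. The median log2 difference was then 0.57 for the 40 genes and 0.42 over all genes.

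At 10 µM vs 0 µM, 25 of the 40 genes fell and 0 rose. The largest falls were in CCNB2, a B-type cyclin (5.29-fold lower), the checkpoint kinase BUB1 (4.4-fold lower), the spindle protein DLGAP5 (3.96-fold lower) and the motor KIF20A (3.76-fold lower). PLK1, CENPF, NUF2, NEK2 and CDC25C also fell by between 3.23-fold and 3.57-fold. The 25 genes are 62.5% of the 40, against 9.71% of the 18928 genes tested that fell, and 5.39% of all genes rose. Of the 25, 22 fell past 2-fold (55%, against 3.4%), and past 2-fold upward there were 0, against 4.07% of all genes.

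The median log2 difference was -1.14, beside -0.15 over all genes tested. The median of the 15261 genes above 0 in all 6 libraries was -0.23. With libraries scaled by the median of ratios, 25 genes fell, 16 of them past 2-fold, the median was -0.90, and CDC25B rose by 0.59. Over all genes 1830 then fell, 284 of them past 2-fold (from 644), 1928 rose (from 1020), and the median was 0.08. All 3 replicates at 10 µM were below all 3 controls for 28 genes (70.0%, against 26.7%) and above them for 1, CDC25B (2.5%, against 14.4%), and 11 genes overlapped. The count of 25 depended on which library was left out: it was 5 without control replicate 1, 4 without control replicate 2, 4 without 10 µM replicate 1 and 5 without 10 µM replicate 3, while the count over all genes went from 1837 to 257, 176, 442 and 347. It was 18 without control replicate 3 and 26 without 10 µM replicate 2, with 463 and 5219 over all genes. The median over the 40 genes lay between -1.29 and -1.02 over the 6 sets with a library left out.

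Between the doses, at 10 µM vs 5 µM, 34 of the 40 genes fell and 0 rose. The largest falls were in CDC25C, another CDK1 phosphatase (5.94-fold lower), CENPA (5.1-fold lower), NUF2, a subunit of the NDC80 complex that holds microtubules (4.27-fold lower), CCNB2 (4.13-fold lower), UBE2C, the ubiquitin-conjugating enzyme of the anaphase-promoting complex (4.13-fold lower), and BUB1 (4.1-fold lower). The 34 genes are 85.0% of the 40, against 5.85% of the 20085 genes tested that fell, and 0.319% of all genes rose. Of the 34, 33 fell past 2-fold (82.5%, against 4.82%), all but KIF11, and upward past 2-fold there were 0, against 0.129% of all genes. The genes that did not pass were CDC25B, AURKB, INCENP, BUB3, MAD2L1 and TTK.

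For all 40 genes every replicate at 10 µM was below every replicate at 5 µM, which held for 25.3% of all genes (every replicate above held for 4.37% of all genes and for 0 of the 40). The median log2 difference was -1.48, beside -0.31 over all genes tested and -0.24 over the 16203 genes above 0 in all 6 libraries. After scaling by the median of ratios the median of the 40 genes was -1.28, with 33 genes down and 28 of them past 2-fold. Over all genes 1180 then fell, 829 of them past 2-fold (from 969). Without 5 µM replicate 1 the count was 16, without replicate 2 it was 11 and without replicate 3 it was 4, while the count over all genes went from 1175 to 415, 490 and 176. Without 10 µM replicate 1, 2 or 3 it was 27, 39 or 28, with 1071, 3993 or 1052 over all genes. No gene changed direction when any library was left out, and the median then lay between -1.64 and -1.38.

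**Figure D3:**
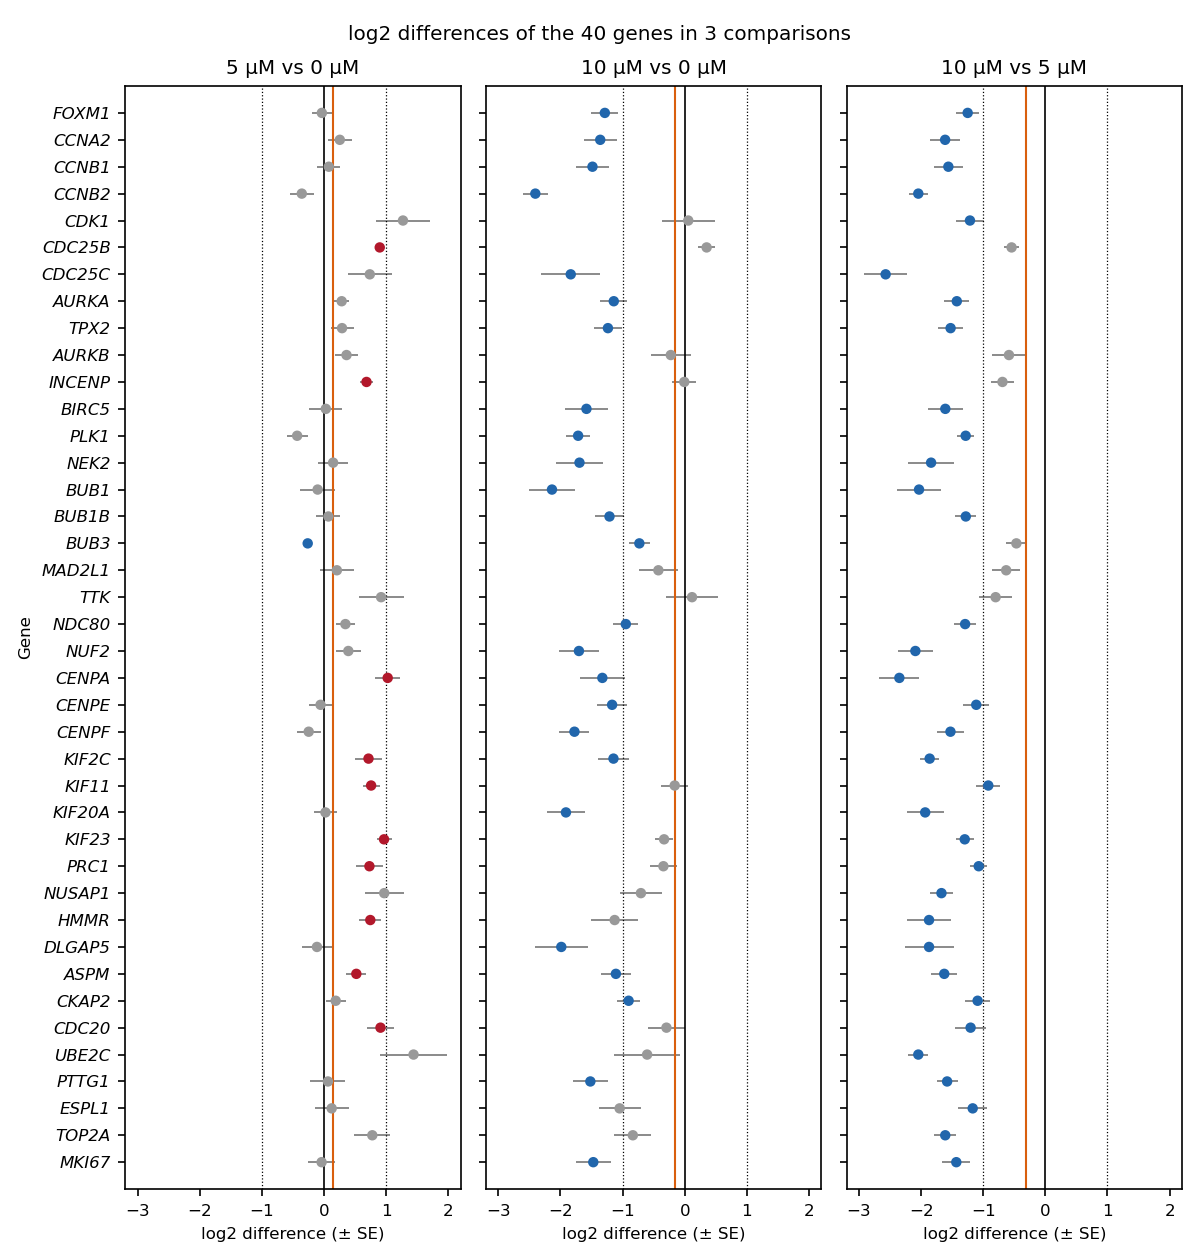
log2 differences (x axis, points with SE bars, n = 3 per group) of the 40 genes (rows) in the 3 comparisons, with red points for genes that rose, blue for genes that fell and grey for the rest; the orange line is the median of all genes tested and the dotted lines mark 2-fold. At 5 µM vs 0 µM 10 points are red and 1 is blue, at 10 µM vs 0 µM 25 are blue, and at 10 µM vs 5 µM 34 are blue and all 40 lie below 0.

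The 7 genes of the cyclin and CDK1 switch include the transcription factor FOXM1, which drives the program. FOXM1 (hg19 chr12:2966846-2986340) was at 85427, 82632 and 59608 in the controls, 65562, 74372 and 80314 at 5 µM and 25504, 37846 and 30082 at 10 µM, in FPKM as for all levels that follow. It differed by -0.04 (SE 0.16, adjusted p = 0.878) at 5 µM vs 0 µM and by -1.25 (SE 0.19, adjusted p = 0.0121) at 10 µM vs 5 µM, all on the log2 scale. Cyclin A, CCNA2, which acts in S phase and early mitosis, was at 40717, 33906 and 26941 in the controls, 33835, 46055 and 40440 at 5 µM and 12604, 16706 and 10434 at 10 µM. Cyclin B1, CCNB1, the main partner of CDK1, was at 213637, 175473 and 131939 in the controls, 159294, 189654 and 191965 at 5 µM and 52808, 86166 and 49532 at 10 µM. Both cyclins had overlapping control and 5 µM values and lay lower in every culture at 10 µM. CCNB2 (hg19 chr15:59397325-59417244) was at 270556, 220015 and 166002 in the controls, 145695, 178293 and 180551 at 5 µM and 38624, 45473 and 37905 at 10 µM. Its 10 µM cultures were far below all others, with -2.40 (SE 0.20, adjusted p = 0.00244) against the controls, and its 5 µM mean was under the control mean without passing (adjusted p = 0.175).

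CDK1 itself (hg19 chr10:62538089-62554610) was at 49062, 27620 and 14491 in the controls, 60435, 83122 and 54917 at 5 µM and 34811, 24851 and 25554 at 10 µM. Every 5 µM value was above every control, but the controls spread from 14491 to 49062 and the difference of 1.27 (SE 0.44) did not pass. At 10 µM CDK1 lay among the controls, at 0.06, and it fell by 1.21 against 5 µM (adjusted p = 0.023). CDC25B (hg19 chr20:3767419-3786768) was at 187893, 193032 and 167351 in the controls, 340203, 330583 and 348491 at 5 µM and 214635, 264216 and 222849 at 10 µM. It had the smallest adjusted p of the 40 genes at 5 µM vs 0 µM, with 0.90 (SE 0.07, adjusted p = 0.00046), and its 10 µM values lay between the other groups (adjusted p = 0.105 against the controls and 0.0539 against 5 µM). CDC25C (hg19 chr5:137620958-137674044) was at 18115, 13009 and 7134 in the controls, 18686, 23325 and 17855 at 5 µM and 2139, 4591 and 3769 at 10 µM. It fell by 2.57 on the log2 scale between the doses, the largest difference of the 40 genes, with 3.57-fold lower levels at 10 µM than in the controls (adjusted p = 0.044). In the group, 1 gene rose at 5 µM vs 0 µM (14.3%, against 21.3% of all genes tested). At 10 µM vs 0 µM 5 fell (71.4%, against 9.71%), and 6 fell at 10 µM vs 5 µM (85.7%, against 5.85%).

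Of the 7 mitotic kinases and chromosomal passengers, AURKA and its activator TPX2, which build the spindle at the poles, passed in the same comparisons. AURKA was at 165202, 141426 and 120284 in the controls, 160722, 177477 and 177945 at 5 µM and 49696, 83918 and 62694 at 10 µM. TPX2 was at 223907, 166005 and 143109 in the controls, 183958, 218972 and 241529 at 5 µM and 62610, 95418 and 68196 at 10 µM. Neither passed at 5 µM vs 0 µM, and both fell at 10 µM, with log2 differences of -1.43 (AURKA) and -1.53 (TPX2) against 5 µM. The chromosomal passenger complex, which corrects wrong attachments, had 1 subunit that rose at 5 µM and another that fell at 10 µM. Its kinase AURKB was at 22366, 14319 and 16061 in the controls, 22006, 22831 and 21729 at 5 µM and 18772, 17076 and 10077 at 10 µM. Its scaffold INCENP (hg19 chr11:61891470-61920641) was at 70575, 62934 and 59184 in the controls, 103374, 96325 and 109386 at 5 µM and 63316, 79737 and 51302 at 10 µM. Its subunit BIRC5 (survivin) was at 57701, 49074 and 29533 in the controls, 39295, 43017 and 52498 at 5 µM and 9677, 17897 and 17974 at 10 µM. INCENP was higher in every 5 µM culture than in any other and rose by 0.68 (adjusted p = 0.00248), AURKB passed in no comparison, and BIRC5 fell by 1.58 against the controls (adjusted p = 0.0286) with overlapping control and 5 µM values. At 10 µM vs 0 µM the differences of AURKB and INCENP were -0.22 and -0.01 without passing, and scaling by the median of ratios turned both above 0.

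PLK1, the Polo kinase that acts from mitotic entry to cytokinesis, had a lower mean at each higher dose. PLK1 (hg19 chr16:23688977-23701688) was at 160989, 118756 and 101865 in the controls, 87182, 94304 and 96187 at 5 µM and 34658, 38430 and 41234 at 10 µM. Its 5 µM values lay below all controls with a difference of -0.43 (SE 0.17, adjusted p = 0.0887) that did not pass, and the 10 µM values lay below both groups, at -1.72 (SE 0.20, adjusted p = 0.00553) against the controls. NEK2, a kinase that separates the centrosomes, was at 58798, 43106 and 33878 in the controls, 38089, 56835 and 53778 at 5 µM and 8704, 22818 and 12769 at 10 µM. It fell by 1.84 between the doses (adjusted p = 0.031). In the group, 1 gene (INCENP) rose at 5 µM vs 0 µM (14.3%, against 21.3% of all genes tested). All but AURKB and INCENP, 5 of the 7, fell in both comparisons with 10 µM. This is 71.4%, against 9.71% of all genes at 10 µM vs 0 µM and 5.85% at 10 µM vs 5 µM.

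Of the 10 kinetochore and checkpoint genes, all but MAD2L1 and TTK fell at 10 µM vs 0 µM (80%, against 9.71% of all genes tested). BUB1, a kinase of the checkpoint, was at 48444, 31623 and 26595 in the controls, 24282, 40105 and 33777 at 5 µM and 8572, 11079 and 5040 at 10 µM. BUB1B (BubR1), which with BUB3 and MAD2L1 inhibits CDC20, was at 49438, 31316 and 33487 in the controls, 35778, 42466 and 39433 at 5 µM and 17085, 16618 and 14710 at 10 µM. BUB3 (hg19 chr10:124913918-124929983) was at 499855, 484278 and 439094 in the controls, 374131, 397420 and 413936 at 5 µM and 255346, 364654 and 250280 at 10 µM. BUB3 had the highest control level of the 40 genes, and its groups descended without overlap from 0 to 5 to 10 µM, with -0.26 (SE 0.08, adjusted p = 0.0355) at 5 µM and -0.73 (SE 0.17, adjusted p = 0.0346) at 10 µM against the controls. BUB1 and BUB1B had overlapping control and 5 µM values and fell by 2.14 and 1.21 at 10 µM. MAD2L1 was at 85116, 43776 and 44388 in the controls, 54308, 69017 and 67847 at 5 µM and 31401, 53402 and 40860 at 10 µM. TTK (MPS1), the kinase that starts the checkpoint, was at 15795, 7762 and 6255 in the controls, 16770, 20013 and 15448 at 5 µM and 9431, 12987 and 8009 at 10 µM. Neither MAD2L1 nor TTK passed in any comparison, and in TTK the 10 µM values lay within the range of the controls.

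NDC80 and NUF2, partners in the complex that grips microtubules, both fell at 10 µM. NDC80 was at 79593, 68695 and 56687 in the controls, 75156, 95947 and 87948 at 5 µM and 34299, 42150 and 29849 at 10 µM. NUF2 was at 17602, 12699 and 17745 in the controls, 17767, 23854 and 21085 at 5 µM and 5521, 5823 and 3574 at 10 µM. Against the controls the log2 differences at 10 µM were -0.95 and -1.70. CENPA (hg19 chr2:26987157-27023935) was at 21950, 32813 and 22616 in the controls, 43540, 56794 and 55565 at 5 µM and 8971, 16238 and 7095 at 10 µM. Every 5 µM value was above every control and every 10 µM value below, with 1.02 (SE 0.20, adjusted p = 0.00837) for the rise, -1.33 (SE 0.36, adjusted p = 0.0478) against the controls at 10 µM and -2.35 (SE 0.32, adjusted p = 0.00958) between the doses. CENPE, a kinesin that carries chromosomes to the spindle equator, was at 23960, 20617 and 17426 in the controls, 17053, 22155 and 20261 at 5 µM and 8783, 9128 and 9440 at 10 µM. CENPF, a large protein of the outer kinetochore, was at 96160, 81009 and 60717 in the controls, 57574, 76264 and 64482 at 5 µM and 24745, 26988 and 17682 at 10 µM. Control and 5 µM values overlapped in both, and their log2 differences against the controls at 10 µM were -1.17 and -1.77. In the group, 1 gene rose and 1 fell at 5 µM vs 0 µM (10% each, against 21.3% and 17.7% of all genes tested). At 10 µM vs 0 µM 8 fell (80%, against 9.71%), and 7 fell at 10 µM vs 5 µM (70%, against 5.85%).

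**Figure D4:**
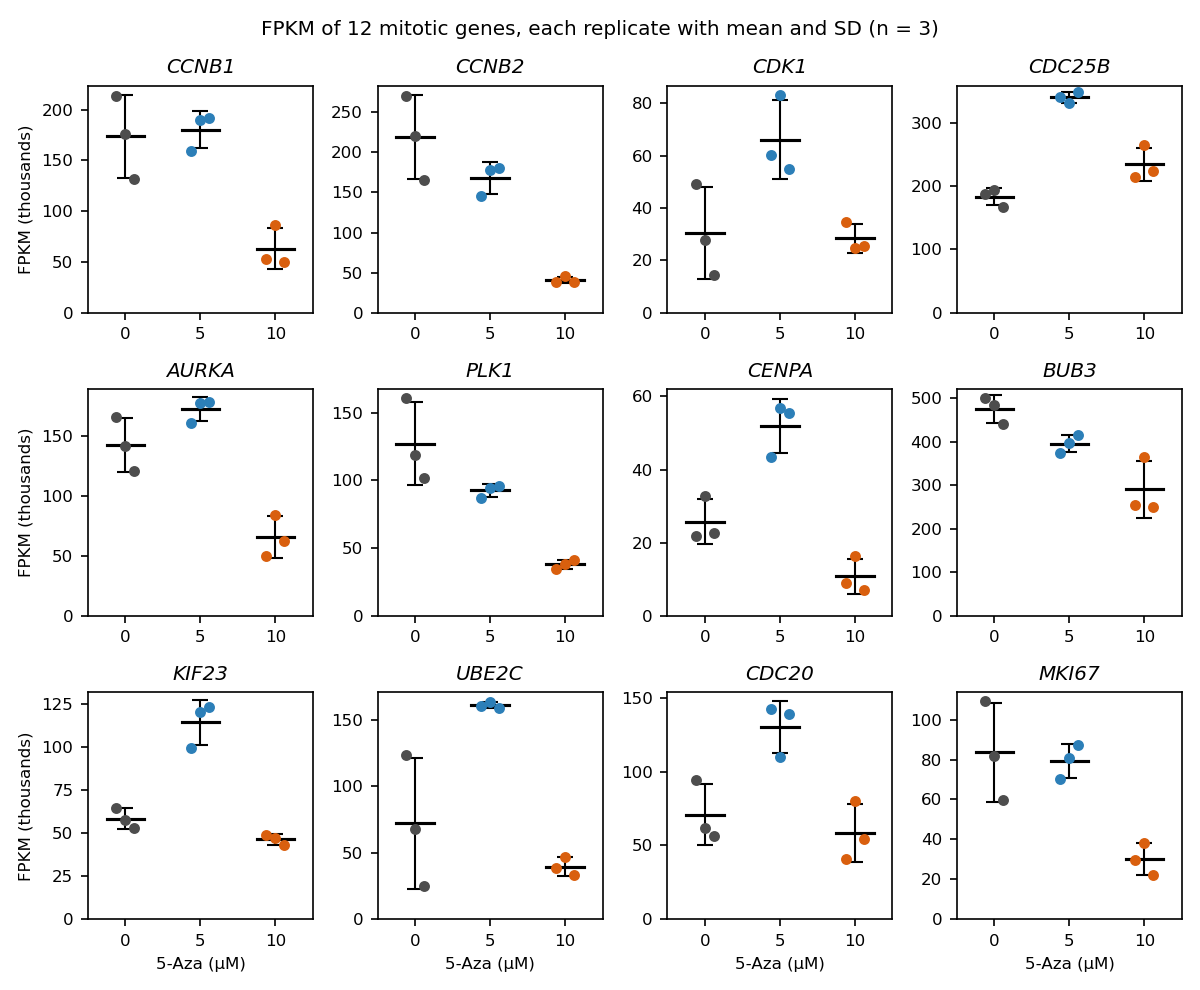
FPKM divided by 1000 (y axis, from 0) of 12 mitotic genes by 5-Aza concentration in µM (x axis), with a point per replicate and a bar with whiskers for the mean and SD (n = 3). CCNB1, CCNB2, AURKA, PLK1 and MKI67 are lower at 10 µM than in any control, CDC25B is above every control at both doses, and KIF23, CENPA, CDC20 and UBE2C are highest at 5 µM.

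Of the 10 motors and spindle proteins, 6 rose at 5 µM (60%, against 21.3% of all genes, with the difference from the other role groups not tested), and all 10 fell at 10 µM vs 5 µM (against 5.85%). KIF2C, which takes microtubules apart at kinetochores, was at 65748, 41840 and 36146 in the controls, 73441, 72658 and 82646 at 5 µM and 20243, 23627 and 19151 at 10 µM. KIF11 (Eg5), which pushes the spindle poles apart, was at 23974, 21170 and 19886 in the controls, 32114, 38936 and 39030 at 5 µM and 16398, 22781 and 19338 at 10 µM. KIF23, a subunit of centralspindlin needed for cytokinesis (hg19 chr15:69706585-69740766), was at 64751, 57421 and 53169 in the controls, 99220, 120518 and 123228 at 5 µM and 48886, 47396 and 42783 at 10 µM. All 5 µM values of the 3 motors were above all their controls, with log2 differences of 0.72, 0.76 and 0.97. At 10 µM KIF2C was below the controls, at -1.15 (SE 0.26, adjusted p = 0.029), while the differences of KIF11 and KIF23 were -0.16 and -0.33 and did not pass. With libraries scaled to equal sums, KIF11, KIF23, PRC1 and CDC20 (an anaphase gene) turned above 0 at 10 µM vs 0 µM. PRC1, which bundles the microtubules of the spindle midzone, was at 133574, 85510 and 77664 in the controls, 141411, 173422 and 165263 at 5 µM and 70004, 84403 and 73627 at 10 µM. KIF20A (MKLP2), a motor that brings the passenger complex to the midzone, was at 21996, 18597 and 18739 in the controls, 17704, 18221 and 24914 at 5 µM and 5523, 6758 and 3850 at 10 µM. PRC1 rose by 0.73 at 5 µM (adjusted p = 0.0366) and was at -0.34 at 10 µM vs 0 µM without passing, and KIF20A was at 0.02 at 5 µM vs 0 µM and fell by 1.91 at 10 µM (adjusted p = 0.0122).

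Among the spindle proteins without a motor, NUSAP1, which bundles microtubules near chromosomes, was at 77991, 57593 and 31569 in the controls, 94129, 109138 and 103429 at 5 µM and 31661, 39902 and 25911 at 10 µM. HMMR, a spindle assembly factor, was at 31306, 31746 and 22967 in the controls, 40557, 54946 and 48184 at 5 µM and 7321, 17830 and 16737 at 10 µM. ASPM, which focuses the spindle poles, was at 27276, 23172 and 20198 in the controls, 29535, 37236 and 34240 at 5 µM and 11293, 12550 and 9000 at 10 µM. In all 3 genes every 5 µM value was above every control, and HMMR and ASPM rose by 0.75 and 0.52, while the 0.97 of NUSAP1 did not pass (adjusted p = 0.0531). DLGAP5 (HURP), which stabilizes the fibers at kinetochores, was at 28795, 18707 and 17852 in the controls, 17671, 23995 and 17903 at 5 µM and 5394, 8876 and 3223 at 10 µM. CKAP2, a spindle protein, was at 137483, 114705 and 109826 in the controls, 112123, 162434 and 140685 at 5 µM and 64400, 77523 and 53074 at 10 µM. Both had overlapping control and 5 µM values and fell at 10 µM vs 0 µM, with log2 differences of -1.99 and -0.90. The group median log2 difference was 0.72 at 5 µM vs 0 µM, -1.01 at 10 µM vs 0 µM and -1.65 at 10 µM vs 5 µM. At 10 µM vs 0 µM 5 of 10 fell (50%, against 9.71% of all genes tested).

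The 4 anaphase genes all fell between the doses (against 5.85% of all genes tested), by 2.25-fold to 4.13-fold. CDC20 (hg19 chr1:43824652-43828874) was at 94470, 61530 and 56708 in the controls, 142445, 110172 and 139135 at 5 µM and 41068, 80172 and 54291 at 10 µM. It rose at 5 µM, by 0.91 (SE 0.21, adjusted p = 0.0177), and at 10 µM overlapped the controls, at -0.29. UBE2C (hg19 chr20:44441215-44445596) was at 123477, 68107 and 24816 in the controls, 160616, 163628 and 159018 at 5 µM and 38312, 46964 and 32983 at 10 µM. Its 3 values at 5 µM had a coefficient of variation of 1.45%, the lowest of the 40 genes in that group, and its controls had 68.6%, the highest of the 40. The difference of 1.44 at 5 µM vs 0 µM carried an SE of 0.54 and did not pass, and the fall between the doses was -2.05 (SE 0.16, adjusted p = 0.00268). PTTG1 (securin), the inhibitor of separase, was at 172835, 131688 and 79510 in the controls, 110001, 141856 and 132245 at 5 µM and 36104, 48359 and 44044 at 10 µM. ESPL1 (separase), the protease that cuts cohesin, was at 16887, 13232 and 8465 in the controls, 13101, 12642 and 14742 at 5 µM and 5988, 6395 and 5591 at 10 µM. Both had overlapping control and 5 µM values and were lower in every culture at 10 µM, where PTTG1 fell by 1.52 against the controls and ESPL1 differed by -1.05 (SE 0.34, adjusted p = 0.074).

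The 2 genes of chromosome structure both fell between the doses (against 5.85% of all genes tested). TOP2A, the topoisomerase that untangles sister chromatids, was at 80357, 56136 and 36215 in the controls, 82456, 106908 and 93304 at 5 µM and 27283, 36448 and 28949 at 10 µM. MKI67 (Ki-67), which coats mitotic chromosomes and marks cycling cells, was at 109278, 82001 and 59795 in the controls, 70289, 80788 and 87086 at 5 µM and 29607, 38318 and 22112 at 10 µM. TOP2A was above all controls at 5 µM without passing (0.78, adjusted p = 0.0756), and MKI67 overlapped them (-0.04). Between the doses TOP2A fell by 1.61 and MKI67 by 1.43, and against the controls at 10 µM MKI67 fell by 1.47 while TOP2A, at -0.83, did not pass.

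A CHR near the start was held by genes that moved little and genes that moved much. The 19 genes with it had a median log2 difference of 0.34 at 5 µM vs 0 µM and -1.30 at 10 µM vs 5 µM, and the 14 without it had 0.31 and -1.60. Of those 14, CDK1, ASPM and TOP2A held CHR letters farther before the start. Between the doses the differences ran from -2.35 to -0.63 with a CHR near the start and from -2.57 to -0.54 without, so the ranges overlapped almost fully. CCNB2, PLK1, CENPA, HMMR and CDC20, whose CHR letters are printed above, had log2 differences of -2.05, -1.28, -2.35, -1.87 and -1.2 between the doses, and CDC25B had -0.54. The other 4 genes with neither CHR nor CCAAT letters in their window, CDC25C, CENPE, KIF2C and CKAP2, had -2.57, -1.11, -1.86 and -1.09. These are descriptions with no test.

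In 128 further genes of 6 related lists, 44 rose and 16 fell at 5 µM vs 0 µM (34.4% and 12.5%, against 21.3% and 17.7% of all genes tested). The counts were 13 up and 17 down at 10 µM vs 0 µM (10.2% and 13.3%, against 5.39% and 9.71%) and 0 up and 22 down at 10 µM vs 5 µM (0% and 17.2%, against 0.319% and 5.85%). These all-gene shares are the background for each list, and no list was tested against it. The other 28 kinetochore genes, many of them subunits that stay at the centromere through the cycle, had 14 up (50%, against 21.3%) and 1 down (3.57%, against 17.7%) at 5 µM vs 0 µM. They had 6 up (21.4%, against 5.39%) and 1 down (3.57%, against 9.71%) at 10 µM vs 0 µM, and 0 passed at 10 µM vs 5 µM (against 0.319% up and 5.85% down). Their median log2 differences were 0.73, 0.41 and -0.44. CENPU went from a mean of 9715 FPKM in the controls to 45921 at 5 µM (log2 difference 2.29, SE 0.28) and 30222 at 10 µM (1.69, SE 0.31), passing in both. CENPP had means of 2501, 8577 and 5758, and passed at 5 µM (1.79, SE 0.29) but not at 10 µM. Both are subunits of the complex that binds CENPA nucleosomes. They were named for the largest differences of their list at 5 µM vs 0 µM, so their low control means follow in part from that choice.

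The list of 27 other motors, spindle and cytokinesis genes had 6 up and 3 down at 5 µM vs 0 µM, where the 22.2% up is near the 21.3% of all genes and the 11.1% down is under the 17.7%. They had 2 up and 8 down at 10 µM vs 0 µM (7.41% and 29.6%, against 5.39% and 9.71%) and 11 down at 10 µM vs 5 µM (40.7%, against 5.85%). FAM83D, which recruits casein kinase to the spindle, had means of 23958, 67667 and 16043 FPKM and fell by 2.13 between the doses (SE 0.26), and HAUS6, an augmin subunit, had 33833, 55213 and 39462 and rose by 0.70 at 5 µM (SE 0.11). Of 18 other mitotic entry genes, 8 rose and 1 fell at 5 µM vs 0 µM (44.4% and 5.56%, against 21.3% and 17.7%) and 7 fell between the doses (38.9%, against 5.85%). MELK, a kinase, rose from 10300 to 31407 (1.74, SE 0.42) and fell by 0.99 between the doses, and PKMYT1, which inhibits CDK1, rose from 21692 to 48814 (1.17, SE 0.12). Of the 18, 1 rose and 3 fell at 10 µM vs 0 µM (5.56% and 16.7%, against 5.39% and 9.71%). The 19 cohesin and condensin genes had 6 up and 3 down at 5 µM vs 0 µM (31.6% and 15.8%, against 21.3% and 17.7%), 1 up and 2 down at 10 µM vs 0 µM (5.26% and 10.5%, near the 5.39% and 9.71% of all genes) and 3 down at 10 µM vs 5 µM (15.8%, against 5.85%). SGO2, a protector of cohesin, had means of 14210, 32941 and 16923, and the condensin subunit NCAPG2 had 44661, 101931 and 55795.

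Among the 17 subunits and regulators of the anaphase-promoting complex, 1 rose and 5 fell at 5 µM vs 0 µM (5.88% and 29.4%, against 21.3% and 17.7%), 1 fell at 10 µM vs 0 µM (5.88%, under the 9.71% of all genes) and 0 passed at 10 µM vs 5 µM. ANAPC1, its largest subunit, had means of 109576, 69679 and 76882 and fell by 0.66 at 5 µM (SE 0.09), and ANAPC16 had 504396, 333350 and 344066 and fell by 0.60 (SE 0.12). Of 19 regulators of the DREAM, E2F and B-MYB families, 9 rose and 3 fell at 5 µM (47.4% and 15.8%, against 21.3% and 17.7%), and 3 rose and 2 fell at 10 µM vs 0 µM (15.8% and 10.5%, against 5.39% and 9.71%). Between the doses 1 fell (5.26%, near the 5.85% of all genes), MYBL2 (B-MYB), named after its value was seen, by 0.97. RBL1 (p107), a pocket protein of DREAM, had means of 5172, 21174 and 22595 with rises of 2.13 (SE 0.34) and 2.2 (SE 0.40) against the controls. E2F2, an activating E2F, had 743, 3020 and 2414 and rose by 2.06 (SE 0.50) at 5 µM. Over these lists the median at 10 µM vs 5 µM lay between -0.80 and -0.08, against -1.48 for the 40 genes and -0.31 for all genes tested.

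**Figure D5:**
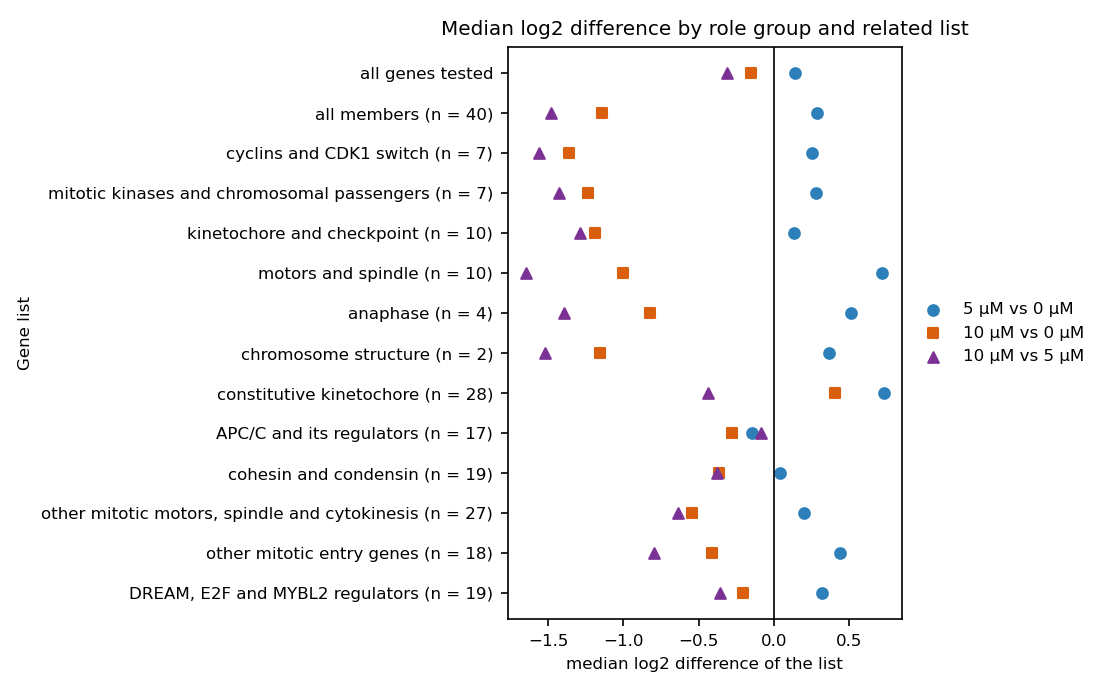
Median log2 difference (x axis) of the 6 role groups of the 40 genes, of 6 related lists and of all genes tested (rows, with the number of genes), with a marker for each comparison. The role groups lie between -1.65 and -1.29 at 10 µM vs 5 µM, and the related lists between -0.80 and -0.08.

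Some reads of these genes may belong to other transcripts. For 13 of the 40 genes the annotation (GENCODE v44lift37) names a pseudogene or gene copy, among them UBE2C with 5, NEK2 with 3, and PTTG1 with PTTG2 and PTTG3P, and how reads shared with a copy were counted is not given in the sources used here. Exons of 7 genes, FOXM1, CCNA2, CDC25C, PLK1, BUB1B, KIF20A and NUSAP1, overlap exons of another gene in the files. BUB1B overlaps PAK6 and NUSAP1 overlaps OIP5-AS1 on the same strand, where strand does not separate the reads. In the other overlaps, on opposite strands, the reads cannot be told apart where the library carries no strand.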

How the data were processed

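RNA was extracted from 9 cultures of HT-29 cells, 3 per group, and sequenced as paired-end libraries. The authors filtered the reads, aligned them with TopHat to hg19 and derived gene levels with Cufflinks, and the deposited files hold the resulting FPKM values, 1 file per library. The Cufflinks options, the annotation, the library term behind the unusual scale and any use of strand are not given in the sources used here, so depth was estimated from step sizes of low values: 12 microRNA genes of 110 nt gave 46 of 46 values above 0 as whole multiples of 1 fragment (tolerance 0.01). The fragment was taken as the smallest of these values in each library, so that value is a multiple by construction. Fragments of longer genes came from a relation to transcript length, which held within 15% for 69.4% of 98 genes. These estimates recover no counts, so no count model was run.

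Values of the 543 symbols on more than 1 entry were summed, and values were transformed as log2(FPKM + 1), the scale of every log2 difference and fold. A fold understates the change of genes near the pseudocount. Genes reaching 10 in either group were tested with limma 3.58.1 (in R 4.3.3, by lmFit and then eBayes with its trend option) on the 6 samples of each comparison, adjusted by Benjamini-Hochberg over all genes tested. Calls used an adjusted p of at most 0.05, alone or with a log2 difference beyond 1 in size. The fits were checked on simulated data. Other steps ran in Python 3.11.15 (pandas 2.3.3, numpy 2.4.6). Promoter letters come from RefSeq (GRCh38.p14), gene positions from GENCODE v44lift37 on hg19.

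The 40 genes, the related lists and the tests were chosen with earlier results of these data known. All 40 genes were named, and of each related list the up to 2 genes with the largest log2 difference among those that passed at 5 µM vs 0 µM. Replicates are separate cultures. Whether equal replicate numbers share a batch is not given in the sources used here, and the main fits used no replicate block. With 3 against 3 an exact permutation test cannot go below p = 0.1, so none is given. Alternatives were other pseudocounts, filters, scalings, a fit of all 9 samples, a replicate block, a test against a fold of 1.2 and leaving out each library.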

Additional observations from a re-analysis of the deposited data

How the results depend on the processing

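Under other pseudocounts, filters, treatments of repeated symbols, and the fit of all 9 samples, no gene changed direction. With a pseudocount of 1000 CDK1 took the place of CENPA past 2-fold at 5 µM vs 0 µM. At 5 µM vs 0 µM, past 2-fold upward there were 4 genes with median-of-ratios scaling, 14 with equal sums and 2 with all 9 samples. Over all genes there were 2934, 3585 and 2780, from 2818. With equal sums 23 genes rose, and 0 fell with equal sums, all 9 samples or the replicate block. Over all genes 6623 rose with equal sums, and 1550, 2014 and 2687 fell under these 3 settings. At 10 µM vs 0 µM, 1 gene, CDC25B, rose (from 0) with median-of-ratios scaling, equal sums or all 9 samples. Over all genes 1928, 2553 and 1784 rose under these settings, from 1020. Past 2-fold, 16 genes fell with median-of-ratios scaling and 12 with equal sums, beside 284 and 164 over all genes. The median was -0.765 (equal sums). At 10 µM vs 5 µM the median was -1.277 with median-of-ratios scaling.

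The sign turned at 5 µM vs 0 µM for FOXM1 (0.004 with median-of-ratios, 0.252 with equal sums), MKI67 (0.000 and 0.248), and with equal sums for BUB1 (0.184), BUB3 (0.024), CENPE (0.230), CENPF (0.040) and DLGAP5 (0.173). At 10 µM vs 0 µM it turned for AURKB (0.018 and 0.155), INCENP (0.234 and 0.372), KIF11 (0.081 and 0.218), and with equal sums for KIF23 (0.047), PRC1 (0.036) and CDC20 (0.085). Other than BUB3, these differences had not passed. The cause was not tested.

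With a library left out, 5 to 19 genes rose, 0 to 3 fell and 0 to 8 were up past 2-fold at 5 µM vs 0 µM, 4 to 26 fell (4 to 25 past 2-fold) at 10 µM vs 0 µM, and 4 to 39 fell (4 to 34 past 2-fold) at 10 µM vs 5 µM. Over all genes, 3227 to 4188 rose, 2320 to 3627 fell and 2388 to 3027 were up past 2-fold at 5 µM vs 0 µM. There 176 to 5219 fell (165 to 1500 past 2-fold) at 10 µM vs 0 µM, and 176 to 3993 (176 to 1873 past 2-fold) at 10 µM vs 5 µM. Directions that turned then were, at 5 µM vs 0 µM, FOXM1 (-0.20 to 0.06), CCNB1 (-0.11 to 0.24), BIRC5 (-0.26 to 0.23), NEK2 (-0.044 to 0.354), BUB1 (-0.29 to 0.14), BUB1B (-0.056 to 0.27), CENPE (-0.173 to 0.056), KIF20A (-0.14 to 0.11), DLGAP5 (-0.26 to 0.11), PTTG1 (-0.24 to 0.32), ESPL1 (-0.15 to 0.35) and MKI67 (-0.26 to 0.17), and at 10 µM vs 0 µM CDK1 (-0.39 to 0.49), AURKB (-0.396 to 0.053), INCENP (-0.17 to 0.15) and TTK (-0.16 to 0.51).

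Cultures of the same replicate number had correlations of deviations of -0.074 to 0.086, beside -0.156 to 0.1 for other pairs. With 3 cultures per group these values cannot exclude a pairing. With the replicate block 7 genes rose at 5 µM vs 0 µM, 24 fell at 10 µM vs 0 µM and 27 fell at 10 µM vs 5 µM, with the same medians as without it. Over all genes 3532, 1405 and 427 did so. Against a fold of 1.2, the genes past 2-fold were 1 up, 15 down and 28 down in the same order. Depth limits CDC25C and NUF2 most at 10 µM.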
